A study of Homo sapiens with 12 samples.

Results

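The endoplasmic reticulum (ER) genes described here are 36 members of the protein-folding and quality-control system: the ER forms of HSP70 and HSP90 with their partners, the lectin chaperones, the disulfide and prolyl isomerases, the stress sensors with the proteases and transcription factors that act with them, the components of ER-associated degradation, the translocon channel and 1 ER membrane calcium protein. They were taken by gene symbol from a count table of 50868 genes, and all 36 were found and passed the low-count filter. The cells were MG63, an established human osteosarcoma line with features of immature osteoblasts. In the first experiment, 3 samples labelled vehicle and 3 exposed to 1 µM anticarin-beta, a small molecule, were collected after 18 hours. In the second, 3 samples received the Allstar control siRNA and 3 the CCT4-specific siRNA (CCT4 is one of the subunits of TRiC, a chaperonin of the cytosol) and were collected after 2 days. Every sample is of the same cell line. The study asked which genes answer to anticarin-beta and to loss of CCT4.

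Proteins that enter the ER pass through the SEC61 channel and fold with the help of HSPA5 (also called BiP or GRP78), HSP90B1, the lectins CALR and CANX and the disulfide isomerases. When unfolded protein builds up, HSPA5 leaves the sensors PERK (gene EIF2AK3), IRE1 (ERN1) and ATF6. PERK slows translation, IRE1 splices XBP1 mRNA, and ATF6 moves to the Golgi, where the proteases encoded by MBTPS1 and MBTPS2 release a transcription factor. The released ATF6 and spliced XBP1 act through ER stress response elements in the promoters of chaperone and degradation genes. Osteoblast-lineage cells load this system heavily because they secrete collagen.

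Libraries held 13393750 to 17492095 counts, and values below are CPM, counts relative to library size, scaled by TMM, edgeR's correction for library composition. CCT4 was measured at 186, 160.2 and 185 CPM in the control siRNA libraries and at 201, 199.6 and 216 CPM in the libraries labelled CCT4 siRNA, so its mRNA was not lower there (log2 0.22 ± 0.09 SE, adjusted p = 0.13), and directions drawn from that comparison refer to libraries so labelled. In the compound experiment CCT4 went from 258, 238 and 212 to 86.8, 87.5 and 72.5 CPM (log2 -1.52 ± 0.10 SE, adjusted p = 1.8e-08). CCT4 shares exon sequence with COMMD1 on the opposite strand, and the sources used here do not say whether counting used strand. The same holds for the members HSP90B1, HYOU1, CRELD2, CALR, CANX, PDIA3, PDIA6, P4HB, FKBP14, EIF2AK3, EDEM1, SYVN1, DERL1, DERL2, DERL3 and SEC61A1 and for DNAJB9, ERO1A, TXNDC11, UFD1, NGLY1 and CREB3, whose exons overlap a gene on the other strand; MBTPS2 shares exons with YY2 on its own strand. Markers of the mesenchymal and osteoblast lineage were present in every group, with a summed level of 7 genes from 5426 CPM in control siRNA to 16448 CPM in anticarin-beta libraries. The 4 epithelial markers summed to 4.58 CPM or less, the 4 blood markers to 2.13 CPM or less with CD3E and HBB at 0 in every library, and the 3 endothelial markers to 15.3 CPM or less; the part of these genes in the results was not tested. TMM factors were 1.07 to 1.10 in vehicle, 0.804 to 0.810 in anticarin-beta, 1.12 in control siRNA and 1.021 to 1.027 in CCT4 siRNA libraries, and the share of counts from mitochondrial genes was 4.87% ± 0.20, 1.27% ± 0.0978, 2.20% ± 0.110 and 1.24% ± 0.0124 in the same order (SD, n = 3). Both quantities move with the groups, and their part in the changes below was not tested beyond the change of scaling. Nothing in the labels says that the 3 samples of a group were grown separately, so p-values speak only of the spread among the samples at hand, possibly a technical one.

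The promoters of several of these genes hold response elements through which ATF6 and XBP1 are known to act. RefSeq promoter windows on GRCh38.p14, from 250 bases before to 50 bases after each start site, were found for 32 of the 36 members. No window was matched for PDIA3, FKBP14, DERL1 and DERL3. The ER stress response element ERSE was searched as CCAAT and CCACG with 9 bases between them, ERSE-II as ATTGG and CCACG with 1 base between them, and the core of the unfolded protein response element as TGACGTGG, each on both strands and with overlaps allowed. ERSE was in 27 of 35116 promoter windows of the genome (0.077%) and in those of 7 members: HSPA5, HSP90B1 (at 2 places), CALR, CANX, PDIA6, XBP1 and CRELD2. ERSE-II was in 19 windows (0.054%), among them HERPUD1, SDF2L1 and HYOU1 (at 2 places), and the third element in 256 windows (0.729%), among them HYOU1 and TXNDC5. A match describes these letters only. Of the stretches below, 4 are shown because genes with the same element changed in opposite directions with anticarin-beta: HSPA5 against CRELD2 for ERSE, and HERPUD1 against SDF2L1 for ERSE-II. Those of CALR and HYOU1, which did not pass in that comparison, are printed as well. Stretches of the other members with an element are not printed. They read 5′ to 3′ along the gene's strand, all lie upstream of the RefSeq start, and capitals mark the matched letters (in CRELD2, SDF2L1, CALR and the HYOU1 pairs of ERSE-II, the element is on the other strand).
HSPA5, chr9:125241379-125241421, minus strand: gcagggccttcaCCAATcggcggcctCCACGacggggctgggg
CRELD2, chr22:49918542-49918584, plus strand: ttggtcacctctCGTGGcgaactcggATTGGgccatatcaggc
CALR, chr19:12938372-12938414, plus strand: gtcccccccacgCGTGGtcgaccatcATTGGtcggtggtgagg
HERPUD1, chr16:56932013-56932047, plus strand: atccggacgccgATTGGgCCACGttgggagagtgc
SDF2L1, chr22:21642102-21642136, plus strand: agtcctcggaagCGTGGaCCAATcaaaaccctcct
HYOU1, chr11:119057262-119057405, minus strand: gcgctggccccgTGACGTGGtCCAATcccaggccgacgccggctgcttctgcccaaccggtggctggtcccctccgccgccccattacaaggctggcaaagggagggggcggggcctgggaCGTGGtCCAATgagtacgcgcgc
In HYOU1 the first capitals hold the TGACGTGG core, whose last 5 letters also belong to the first ERSE-II.

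After 18 hours of anticarin-beta, 15 of the 36 genes were higher, 8 were lower and 13 did not pass the test (edgeR's quasi-likelihood test, adjusted p under 0.05). The strongest increases were in the sensor gene EIF2AK3, at 3.16-fold, and in the degradation genes HERPUD1 and EDEM1, at 3.05-fold and 2.10-fold. The strongest decrease was in MBTPS1, the gene of the protease that makes the first cut in ATF6, at 2.58-fold, followed by SDF2L1 at 2.04-fold. Among all 17717 genes tested, 34.9% were higher and 38.0% lower in the same comparison, so the 41.7% of members that were higher is near the background and the 22.2% that were lower is under it. The members' median log2 fold change was 0.17, against -0.06 over all genes tested. With library totals in place of TMM the median over all genes moved to -0.48, and 7 members were higher and 19 lower. Of all 17717 genes, 4292 were then higher and 8959 lower, so the turn to lower calls was not particular to the members. Of the members called higher, 7 kept the call and the direction under all 3 other scalings: HSPA5, FKBP14, EIF2AK3, ATF6, HERPUD1, EDEM1 and SEC61G. All 8 called lower did so. Upper-quartile scaling and library totals moved the median over all genes down, to -0.18 and -0.48, and RLE moved it up only to -5.3e-04. Lower calls were therefore easier to keep than higher ones, and the 2 counts do not compare their stability.

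**Figure D1:**
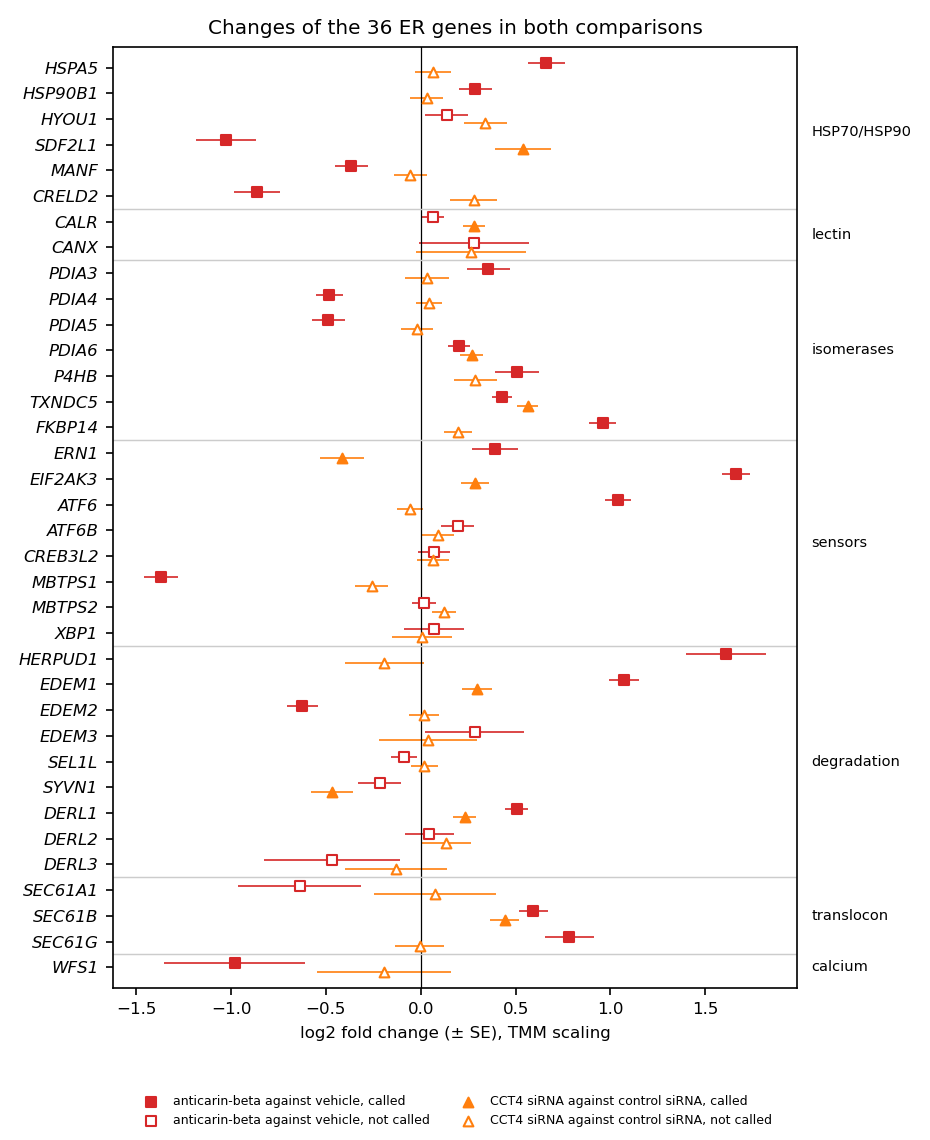
Log2 fold changes with standard errors of the 36 genes for anticarin-beta against vehicle (squares) and for CCT4 siRNA against control siRNA (triangles), with filled symbols for genes that passed the test and the genes grouped by role from top to bottom. The anticarin-beta changes run from -1.37 for MBTPS1 to 1.66 for EIF2AK3, and the siRNA changes from -0.47 for SYVN1 to 0.56 for TXNDC5.

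Among the ER HSP70 and HSP90 chaperones and their partners, 2 of 6 rose with anticarin-beta, 3 fell and HYOU1 did not pass. That is 33.3% higher and 50% lower, where 34.9% and 38.0% of all genes tested were. HSPA5 (chr9:125234853-125241330, minus strand, GRCh38), the ER HSP70 that binds unfolded chains and holds the sensors inactive, was measured at 760.4, 1021 and 933 CPM in vehicle and 1569, 1302 and 1426 CPM in anticarin-beta libraries. Every treated library was above every vehicle library, a 1.58-fold rise (log2 0.66 ± 0.10 SE, adjusted p = 4.6e-05). HSP90B1, the ER HSP90, rose from 1199 ± 161 to 1462 ± 41.4 CPM (SD, n = 3; log2 0.29 ± 0.09 SE, adjusted p = 0.0095), but its direction turned with library totals (log2 -0.13, adjusted p = 0.17) and it did not pass with upper-quartile scaling (log2 0.17). HYOU1, a nucleotide exchange factor of HSPA5, was at 221 ± 29.4 and 242 ± 20.6 CPM (log2 0.14 ± 0.11 SE, adjusted p = 0.29); with library totals it was lower (log2 -0.28, adjusted p = 0.034).

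The 3 smaller partners went the other way. SDF2L1 (chr22:21642261-21644298, plus strand), which works with the J-domain co-chaperones of HSPA5, was at 30.9, 26.4 and 21.7 CPM in vehicle and 13.4, 11.4 and 13.97 CPM in anticarin-beta libraries. The groups did not overlap (log2 -1.03 ± 0.16 SE, adjusted p = 6.6e-05). CRELD2, a secreted ER protein whose gene is a known stress target, went from 49.7, 67.9 and 56.9 to 32.4, 33.2 and 30.3 CPM, again without overlap (log2 -0.86 ± 0.12 SE, adjusted p = 3.4e-05). MANF, an ER-resident factor that stabilises HSPA5 with its clients, went from 43.6, 47.05 and 38.7 to 33.6, 32.99 and 33.6 CPM (log2 -0.37 ± 0.09 SE, adjusted p = 0.0023). HSPA5 thus rose while 3 genes known as its partners or co-regulated targets fell, and this split did not turn under any of the scalings. The level of HSPA5 per kilobase of exon was 9.96 ± 2.70 times that of SDF2L1 in vehicle and 31.3 ± 2.25 times in anticarin-beta libraries (SD, n = 3), a ratio within each library that no scaling changes.

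Neither lectin chaperone passed in the anticarin-beta comparison. CALR, the soluble lectin, was at 1480.2, 1618 and 1474 CPM in vehicle and 1613, 1559 and 1611 CPM with anticarin-beta (log2 0.07 ± 0.06 SE, adjusted p = 0.32); with library totals it was lower (log2 -0.35, adjusted p = 8.1e-05), and DESeq2 called it higher (log2 0.13). CANX, the membrane-bound lectin, was uneven between libraries of 1 group, with 1976, 1904 and 892 CPM in vehicle and 2281, 1098 and 2416 CPM in anticarin-beta. Vehicle replicate 3 and anticarin-beta replicate 2 were at about the same low level, and the estimate was wide (log2 0.28 ± 0.29 SE, adjusted p = 0.4).

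All 7 isomerases passed, 5 higher and 2 lower, where 34.9% and 38.0% of all genes did, and with library totals FKBP14 was the only 1 of the 5 that still passed as higher. FKBP14, a prolyl isomerase that acts on procollagen, rose 1.94-fold, from 42.5, 45.8 and 46.3 to 86.3, 90.4 and 84.8 CPM (log2 0.96 ± 0.07 SE, adjusted p = 9e-08). TXNDC5, a disulfide isomerase with thioredoxin domains, rose from 557, 532 and 511 to 734, 706 and 711 CPM (log2 0.43 ± 0.05 SE, adjusted p = 1.2e-05). P4HB, the founding disulfide isomerase and a subunit of prolyl 4-hydroxylase, rose from 531 ± 53.8 to 755 ± 106 CPM (log2 0.51 ± 0.11 SE, adjusted p = 0.0014). PDIA3, the isomerase that works with the lectins, and PDIA6, known to limit IRE1 signalling, rose by smaller steps (log2 0.36 ± 0.11 and 0.20 ± 0.06 SE). With upper-quartile scaling neither passed (log2 0.24 and 0.0855), nor PDIA6 with no low-count filter (log2 0.17). With library totals PDIA3 and PDIA6 turned to log2 -0.0584 and -0.22, and TXNDC5 and P4HB did not pass (log2 0.0095 and 0.0911). PDIA4, the isomerase also called ERp72, fell from 310.5, 378 and 347 to 242, 247 and 253 CPM (log2 -0.48 ± 0.07 SE, adjusted p = 3.9e-05). PDIA5, an isomerase known to act on ATF6, fell from 33.9, 43.2 and 41.2 to 28.2, 28.6 and 27.7 CPM (log2 -0.49 ± 0.09 SE, adjusted p = 2.7e-04). Within libraries the level of P4HB per kilobase was 0.950 ± 0.00801 times that of PDIA4 in vehicle and 1.89 ± 0.298 times with anticarin-beta (SD, n = 3). TXNDC5 shares exons with the read-through gene BLOC1S5-TXNDC5, and PDIA5 with SEC22A, on the same strand, so both values are uncertain to the extent that counting split or dropped shared reads.

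**Figure D2:**
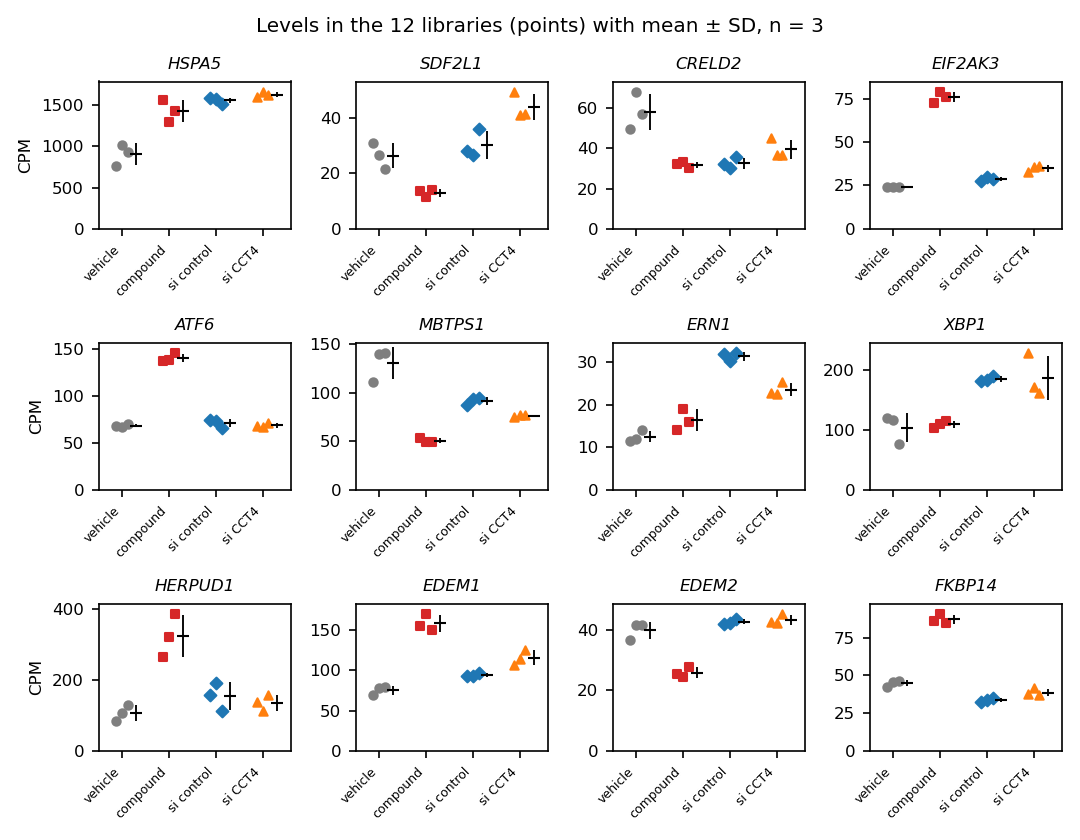
CPM of 12 of the genes in each of the 12 libraries, with 1 point per library and the group mean ± SD beside the points (n = 3, axes from 0; compound stands for anticarin-beta). In EIF2AK3, ATF6, HERPUD1, EDEM1 and FKBP14 the 3 anticarin-beta libraries stand above all vehicle libraries, and in SDF2L1, CRELD2, MBTPS1 and EDEM2 below them.

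The mRNAs of all 3 sensors rose with anticarin-beta, by unequal amounts. EIF2AK3 (chr2:88556741-88627576, minus strand), which encodes PERK, was at 24.3, 23.9 and 23.7 CPM in vehicle and 72.7, 78.6 and 76.1 CPM in anticarin-beta libraries (log2 1.66 ± 0.07 SE, adjusted p = 7.3e-10). ATF6 (chr1:161766294-161964070, plus strand) was at 68.3, 66.8 and 70.1 CPM in vehicle and 138, 138 and 146 CPM with anticarin-beta, a 2.05-fold rise (log2 1.04 ± 0.07 SE, adjusted p = 1.9e-08). Neither gene's groups came near each other. ERN1, which encodes IRE1, was low and rose less, from 11.6, 11.9 and 14.01 to 14.1, 19.1 and 16.1 CPM (log2 0.39 ± 0.12 SE, adjusted p = 0.011). Its call was lost without anticarin-beta replicate 2 (log2 0.27) and with upper-quartile scaling (log2 0.28), and library totals gave log2 -0.0230. Exons of ATF6 and ERN1 overlap no other annotated exon.

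Of the 5 proteases and transcription factors listed with the sensors, 1 fell and 4 did not pass. With the sensors, 37.5% of these 8 genes were higher and 12.5% lower, where 34.9% and 38.0% of all genes tested were. MBTPS1 (chr16:84053761-84116906, minus strand), the Golgi site-1 protease, fell from 111, 139.7 and 141 to 53.6, 49.1 and 49.03 CPM (log2 -1.37 ± 0.09 SE, adjusted p = 2.4e-08), with no overlap between groups. MBTPS2, the site-2 protease that makes the following cut, was at 76.5 ± 3.04 and 77.4 ± 0.819 CPM (log2 0.02 ± 0.06 SE, adjusted p = 0.83). XBP1, the mRNA that IRE1 splices, was at 119.6, 116 and 75.7 CPM in vehicle and 104, 109 and 114 CPM with anticarin-beta, and the groups overlapped (log2 0.07 ± 0.16 SE, adjusted p = 0.71); gene counts do not tell its spliced from its unspliced form. ATF6B, the ATF6 paralogue, was at 30.6 ± 0.575 and 35.1 ± 3.00 CPM (log2 0.19 ± 0.09 SE, adjusted p = 0.064). It passed as higher without anticarin-beta replicate 1, with RLE size factors and in DESeq2 (log2 0.26 in each) and with the filter of 5 CPM in 3 libraries (log2 0.25), and its exons overlap TNXB on the same strand. CREB3L2, a related factor that the same proteases release, was at 93.9 ± 11.4 and 98.5 ± 2.53 CPM (log2 0.07 ± 0.09 SE, adjusted p = 0.48). With library totals MBTPS2, ATF6B and CREB3L2 turned to log2 -0.40, -0.22 and -0.35. Per kilobase of exon, ATF6 stood at 0.688 ± 0.0943 times the level of MBTPS1 in vehicle and at 3.62 ± 0.264 times with anticarin-beta (SD, n = 3). The same ratio was 1.02 ± 0.102 in control siRNA and 1.17 ± 0.0381 in CCT4 siRNA libraries. ATF6 also moved apart from its paralogue, from 1.03 ± 0.0174 to 1.85 ± 0.118 times the level of ATF6B.

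In ER-associated degradation, 3 of 9 genes rose with anticarin-beta, 1 fell and 5 did not pass. That is 33.3% higher and 11.1% lower, where 34.9% and 38.0% of all genes tested were, so the share of increases is at the background. HERPUD1 (chr16:56932048-56944863, plus strand), a membrane scaffold of the HRD1 ubiquitin ligase and a known target of ER stress, was at 82.9, 108 and 128 CPM in vehicle and 266, 321 and 386 CPM in anticarin-beta libraries. The lowest treated library was above the highest vehicle library (log2 1.61 ± 0.21 SE, adjusted p = 1.8e-05), although both groups spread more than most members. EDEM1 (chr3:5187646-5219957, plus strand), which trims mannose from misfolded glycoproteins, rose from 69.2, 77.6 and 79.4 to 156, 169.8 and 150.2 CPM (log2 1.07 ± 0.08 SE, adjusted p = 8.1e-08). Its relative EDEM2, which starts that trimming, fell from 36.6, 41.6 and 41.6 to 25.3, 24.6 and 27.9 CPM (log2 -0.62 ± 0.08 SE, adjusted p = 1.6e-05). EDEM1 therefore went from 0.536 ± 0.00589 to 1.75 ± 0.215 times the level of EDEM2 per kilobase (SD, n = 3). EDEM3 was at 39.9, 65.1 and 72.2 CPM in vehicle and 71.1, 73.6 and 71.1 CPM with anticarin-beta and did not pass (log2 0.28 ± 0.26 SE, adjusted p = 0.34).

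DERL1, a derlin of the retrotranslocation channel, rose from 122, 130.4 and 130.4 to 189.7, 181 and 172 CPM (log2 0.51 ± 0.06 SE, adjusted p = 7.7e-06) but not with library totals (log2 0.0885, adjusted p = 0.2). DERL2 was at 29.1 ± 3.59 and 29.98 ± 3.31 CPM (log2 0.04 ± 0.13 SE, adjusted p = 0.77) and turned to log2 -0.37 with library totals. DERL3 was the lowest member, at 0.586, 0.844 and 1.44 CPM in vehicle and 0.587, 0.647 and 0.837 CPM with anticarin-beta, where 3 counts correspond to 0.172 to 0.224 CPM before TMM, and its change was not resolved (log2 -0.47 ± 0.36 SE, adjusted p = 0.25). SEL1L, the adaptor of the HRD1 ligase, was at 96.4 ± 5.39 and 90.8 ± 4.70 CPM (log2 -0.09 ± 0.07 SE, adjusted p = 0.28). SYVN1, the HRD1 ligase itself, was at 39.2, 45.5 and 42.8 against 36.4, 35.8 and 37.6 CPM (log2 -0.22 ± 0.11 SE, adjusted p = 0.1). Both ligase genes were called lower with library totals (log2 -0.51 and -0.63) and with upper-quartile scaling (log2 -0.20 and -0.33), and SYVN1 also when CCT4 siRNA replicate 1 was left out of the shared fit (log2 -0.22). SYVN1 shares exons with FAU on the same strand, so its counts are uncertain.

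The small translocon subunits rose and the pore subunit did not. SEC61B went from 78.3, 80.4 and 74.3 to 122, 113 and 117 CPM (log2 0.59 ± 0.08 SE, adjusted p = 1.4e-05) and SEC61G from 108, 122 and 110.2 to 221, 206 and 158 CPM (log2 0.78 ± 0.13 SE, adjusted p = 1.1e-04). With library totals SEC61G still passed (log2 0.37) and SEC61B did not (log2 0.18, adjusted p = 0.059). SEC61A1, the pore-forming subunit, was at 369, 689 and 482 CPM in vehicle and 329, 324 and 336 CPM in anticarin-beta libraries (log2 -0.64 ± 0.32 SE, adjusted p = 0.094). The vehicle libraries spread widely while the treated ones lay close together, and SEC61A1 was called lower without vehicle replicate 1 (log2 -0.84), without CCT4 siRNA replicate 2 (log2 -0.65), with the compound experiment fitted alone (log2 -0.64), with no low-count filter (log2 -0.67) and with library totals (log2 -1.05). WFS1, the ER membrane protein wolframin, was at 28.6, 33.3 and 11.2 CPM in vehicle and 13.3, 11.9 and 11.7 CPM with anticarin-beta. Vehicle replicate 3 was as low as the treated libraries, and WFS1 passed narrowly (log2 -0.98 ± 0.37 SE, adjusted p = 0.031). Its call was lost without vehicle replicate 1 or 2 (log2 -0.86 and -0.72), without any 1 of the 3 anticarin-beta libraries (log2 -1.04, -0.96 and -0.94) and in limma-voom (log2 -0.82).

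**Figure D3:**
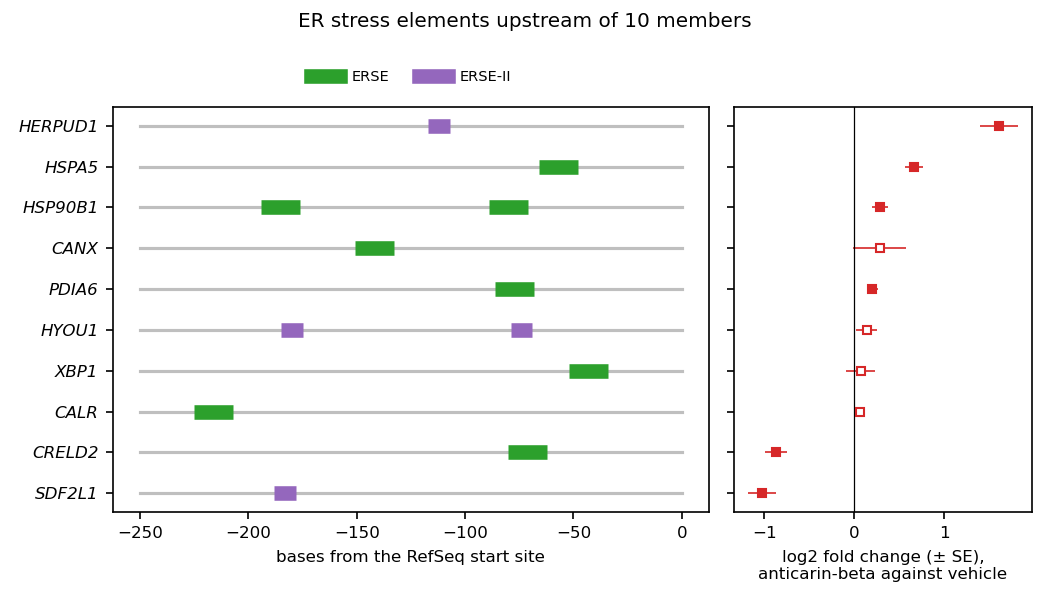
Left, positions of ERSE and ERSE-II matches in the 250 bases upstream of the RefSeq start site (position 0) of 10 members; for CANX 1 of its 3 windows is drawn. Right, the log2 fold change ± SE with anticarin-beta, filled where the gene passed the test: 4 of the 10 rose, from PDIA6 at 0.20 to HERPUD1 at 1.61, and CRELD2 and SDF2L1 fell by 0.86 and 1.03.

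The members with an ERSE or ERSE-II, whose sequences are printed in part above, changed in both directions. Of these 10, 4 rose with anticarin-beta and 2 fell, 40% and 20% where 34.9% and 38.0% of all genes tested did, with a median log2 fold change of 0.17. Of the 22 members with a promoter window and neither element, 8 rose and 6 fell, with a median of 0.06. HSPA5 and CRELD2 each hold 1 ERSE close to the start site, at -66 to -48 and at -80 to -62, on opposite strands, and changed by log2 0.66 and -0.86. HERPUD1 and SDF2L1 each hold 1 ERSE-II, at -117 to -107 and at -188 to -178, and changed by log2 1.61 and -1.03. The elements were searched in 1 short window, so others outside it were not counted.

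In the libraries labelled CCT4 siRNA, 8 of the 36 members were higher than with control siRNA, 2 were lower and 26 did not pass. Over all genes tested 10.7% were higher and 9.04% lower, against 22.2% and 5.56% of the members. The members' median log2 fold change was 0.06, against 0.007 over all genes, and no member changed by 2-fold. Only TXNDC5 and SEC61B, of the 10 called, kept their call under every alternative tried. With library totals these were the 2 members called higher, where 902 of the 17717 genes tested were higher and 2800 lower.

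TXNDC5 was at 220.1, 229 and 226 CPM in control siRNA and 328, 333 and 337 CPM in CCT4 siRNA libraries (log2 0.56 ± 0.05 SE, adjusted p = 3.7e-05). SEC61B was at 41.2, 44.3 and 48.7 against 56.96, 62.4 and 63.1 CPM (log2 0.44 ± 0.08 SE, adjusted p = 0.0023). In both genes the lowest CCT4 siRNA library was above the highest control. CALR rose from 1035, 1064 and 1102 to 1313, 1311 and 1265 CPM (log2 0.28 ± 0.06 SE, adjusted p = 0.0055) and PDIA6 from 623, 611 and 654 to 749, 779 and 747 CPM (log2 0.27 ± 0.06 SE, adjusted p = 0.0085). These 2 genes passed whichever library was left out and failed only with library totals (log2 0.15 and 0.14). In vehicle, control siRNA and CCT4 siRNA libraries TXNDC5 was at 122, 51.3 and 75.8 CPM per kilobase of exon. SEC61B was at 65.3, 37.6 and 51.1, and CALR at 561, 393 and 478. TXNDC5, SEC61B and CALR, and DERL1, SYVN1 and ERN1 below, thus moved toward their vehicle level. PDIA6, SDF2L1, EIF2AK3 and EDEM1 moved away from theirs. What set the vehicle and control siRNA levels apart was not tested.

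The other 4 increases were less stable. SDF2L1 was at 27.9, 26.6 and 36.02 CPM in control siRNA and 49.2, 41.05 and 41.5 CPM in CCT4 siRNA libraries (log2 0.54 ± 0.15 SE, adjusted p = 0.024), and lost its call on leaving out control replicate 1, control replicate 2 or CCT4 siRNA replicate 1 (log2 0.49, 0.46 and 0.45) and with library totals (log2 0.41). EIF2AK3 was at 27.2, 29.7 and 28.6 against 32.5, 35.8 and 36.2 CPM (log2 0.29 ± 0.07 SE, adjusted p = 0.018), and lost it on leaving out control replicate 1, CCT4 siRNA replicate 2 or CCT4 siRNA replicate 3 (log2 0.25, 0.27 and 0.26). EDEM1 was at 92.5, 93.5 and 96.5 against 107, 115 and 125 CPM (log2 0.30 ± 0.08 SE, adjusted p = 0.022), and lost it on leaving out control replicates 1 or 2, or replicates 2 or 3 of CCT4 siRNA (log2 0.28, 0.29, 0.30 and 0.23). DERL1 was at 102, 106 and 104 against 118, 124 and 124 CPM (log2 0.23 ± 0.06 SE, adjusted p = 0.021), and lost it on leaving out control replicates 1 or 3, or replicates 2 or 3 of CCT4 siRNA (log2 0.22, 0.23, 0.22 and 0.22). EIF2AK3, EDEM1 and DERL1 also lost it with no low-count filter (log2 0.28, 0.29 and 0.22) and with library totals (log2 0.16, 0.16 and 0.10). For SDF2L1, EIF2AK3, EDEM1 and DERL1 the groups did not overlap, which did not set them apart. The groups overlapped in only 18 of the 36 members, and HSPA5, which did not pass, was higher without overlap. The share over all genes was not counted. HYOU1 lay just outside the threshold (log2 0.34 ± 0.11 SE, adjusted p = 0.053), and passed without vehicle replicate 2 (log2 0.34) or CCT4 siRNA replicate 3 (log2 0.42), in DESeq2 and with no low-count filter (log2 0.33 in both).

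SYVN1 and ERN1 were the 2 decreases. SYVN1 was at 83.9, 80.3 and 76.3 CPM in control siRNA and 70.2, 52.8 and 50.98 CPM in CCT4 siRNA libraries (log2 -0.47 ± 0.11 SE, adjusted p = 0.012), with CCT4 siRNA replicate 1 nearest to the controls. Its call was lost without CCT4 siRNA replicate 2 or 3 (log2 -0.40 and -0.38). ERN1 was at 32.03, 30.3 and 32.1 against 22.8, 22.5 and 25.5 CPM (log2 -0.42 ± 0.12 SE, adjusted p = 0.025). Its groups did not overlap, but the call was lost without any 1 of the control siRNA libraries or without CCT4 siRNA replicate 1 or 2 (log2 between -0.44 and -0.38). MBTPS1, which fell with anticarin-beta, was at 86.8, 93.1 and 94.1 against 75.2, 76.7 and 77.2 CPM and did not pass (log2 -0.26 ± 0.09 SE, adjusted p = 0.058); it passed without vehicle replicate 1 or 2 in the shared fit (log2 -0.26 in both), with upper-quartile scaling and the filter of 5 CPM in 3 libraries (log2 -0.28 in both), in DESeq2 and with the siRNA experiment fitted alone (log2 -0.27 in both), and with library totals (log2 -0.39). HSPA5 was at 1584, 1574 and 1521 CPM in control siRNA and 1606, 1658 and 1629 CPM in CCT4 siRNA libraries and did not pass (log2 0.06 ± 0.10 SE, adjusted p = 0.7). ATF6 and XBP1 did not pass either (log2 -0.06 ± 0.07 SE, adjusted p = 0.61 and log2 0.01 ± 0.16 SE, adjusted p = 0.98), with 74.8, 73.2 and 66.3 against 67.7, 66.6 and 71.6 CPM and 182, 183 and 191 against 228, 171 and 161 CPM.

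The members that did not pass in the siRNA comparison included some whose libraries were uneven. CCT4 siRNA replicate 2 held 649 CPM of SEC61A1 and the other two 293 and 288. CCT4 siRNA replicate 3 held 14.7 CPM of WFS1 and the other two 36.7 and 33.6. Control siRNA replicate 3 held 48.8 CPM of EDEM3 and the other two 108 and 105. HERPUD1 spread from 113 to 191 CPM over the control siRNA libraries, with replicate 3 lowest, and the same library was the highest control for SEC61A1, at 545 CPM. CANX was even here, at 1293, 1353 and 1251 CPM and 1508, 1583 and 1591 CPM, and passed only when the siRNA experiment was fitted alone (log2 0.25). These genes were named after their values were seen.

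The 2 responses were compared as the change with anticarin-beta minus the change with CCT4 siRNA, in the same fit. Exposure lasted 18 hours in one and 2 days in the other, and the controls were vehicle and control siRNA. Agent, delivery and time therefore cannot be told apart. The contrast compares changes, not levels, and the 2 controls started apart. Mean levels in vehicle and control siRNA were 12.5 and 31.5 CPM for ERN1 and 905 and 1560 CPM for HSPA5. With anticarin-beta these genes reached 16.4 and 1432 CPM, below their control siRNA means. In this contrast 9 members were higher and 8 lower, 25% and 22.2% of the members, where 27.5% and 32.4% of all genes tested were. The difference was largest, on the positive side, for HERPUD1 (log2 1.80 ± 0.30 SE, adjusted p = 1.9e-04), EIF2AK3 (log2 1.37 ± 0.10 SE, adjusted p = 2.2e-07) and ATF6 (log2 1.10 ± 0.09 SE, adjusted p = 6.6e-07). On the negative side it was largest for SDF2L1 (log2 -1.57 ± 0.22 SE, adjusted p = 4.3e-05), CRELD2 (log2 -1.14 ± 0.17 SE, adjusted p = 9.4e-05) and MBTPS1 (log2 -1.11 ± 0.13 SE, adjusted p = 7.6e-06). SDF2L1 and ERN1 were called in both comparisons in opposite directions, and the difference passed for both, with ERN1 at log2 0.81 ± 0.17 SE (adjusted p = 0.0011). FKBP14, EDEM1, HSPA5, SEC61G and DERL1 were the other positive differences (log2 0.76, 0.78, 0.60, 0.79 and 0.27). EDEM2, PDIA4, PDIA5, MANF and CALR were the other negative ones (log2 -0.64, -0.52, -0.47, -0.31 and -0.22).

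Several of these differences were narrow. HSPA5 and DERL1 did not pass with library totals (log2 0.31 and -0.0118), and DERL1 neither with upper-quartile scaling nor with no low-count filter (log2 0.18 and 0.25). MANF kept its call when vehicle replicate 3, control siRNA replicate 1 or CCT4 siRNA replicate 2 was left out and lost it when any other single library was (log2 between -0.32 and -0.27). CALR lost its call when replicate 2 or 3 of anticarin-beta, or replicate 1 or 2 of either siRNA group, was left out (log2 between -0.22 and -0.20). RLE size factors, DESeq2, no low-count filter, the filter of 5 CPM and the replicate block also ended both calls, and limma-voom that of MANF. With the block MANF was at log2 -0.31 and CALR at -0.21 (adjusted p = 0.061 and 0.0608). HSP90B1 and PDIA3 passed as positive differences without vehicle replicate 2 (log2 0.34 and 0.42) and in DESeq2 (log2 0.33 and 0.40), HSP90B1 also with RLE size factors and the filter of 5 CPM (log2 0.33 in both), SYVN1 did so without CCT4 siRNA replicate 1 (log2 0.40), and WFS1 passed as a negative one without vehicle replicate 3 or CCT4 siRNA replicate 3 (log2 -1.14 and -1.11). For TXNDC5 and SEC61B, which rose in both comparisons, the differences were log2 -0.14 ± 0.08 and 0.15 ± 0.11 SE and did not pass. The difference of TXNDC5 was called lower with upper-quartile scaling (log2 -0.23) and library totals (log2 -0.42), and with library totals neither gene passed with anticarin-beta (log2 0.0095 and 0.18).

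**Figure D4:**
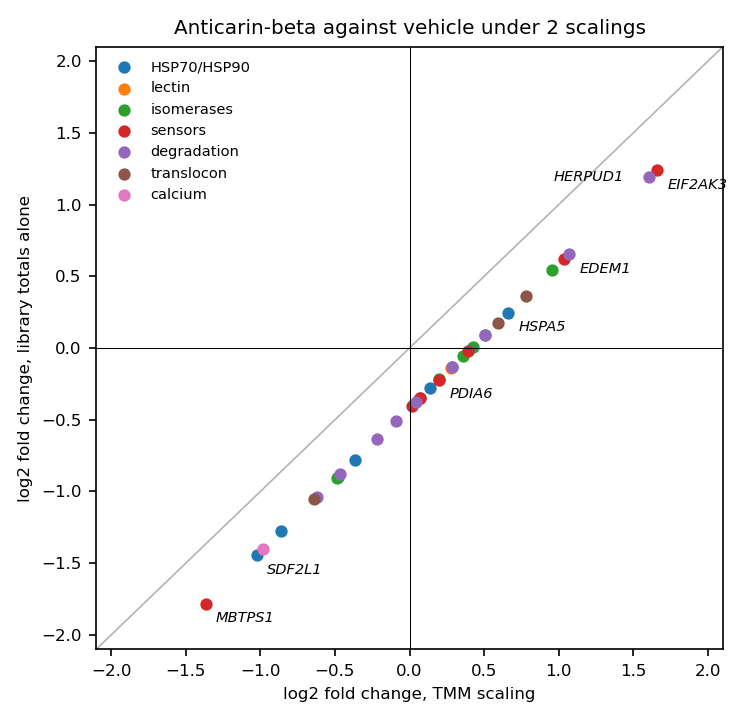
Log2 fold changes of the 36 members with anticarin-beta under TMM scaling (x axis) and with library totals alone (y axis), coloured by role, with the line of equal values in grey. All points lie below the line: EIF2AK3, HERPUD1, EDEM1 and HSPA5 stay above 0 on both axes, MBTPS1 and SDF2L1 stay below 0, and PDIA6 changes sign.

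Per kilobase of exon, the abundance of the members spanned a wide range. The length used was that of all annotated exons of a gene together, not of the transcript expressed. The order of genes and the size of ratios between genes, here and above, therefore depend on the annotation. In vehicle libraries CALR was first at 561 ± 30.03 CPM per kilobase (SD, n = 3), followed by HSP90B1 at 255 ± 34.3, CANX at 255 ± 97.2, HSPA5 at 232 ± 33.9 and PDIA3 at 174 ± 32.9. From HSP90B1 to PDIA3 the SD ranges of neighbours in this order overlapped. The sensors stood in the lower part of the order, with ATF6 at 8.67 ± 0.214, EIF2AK3 at 4.41 ± 0.0532 and ERN1 at 1.15 ± 0.122 CPM per kilobase, and only DERL3 was below ERN1, at 0.252 ± 0.116. With anticarin-beta EIF2AK3 reached 13.9 ± 0.541 and ATF6 17.8 ± 0.565 CPM per kilobase, while MBTPS1 went from 12.8 ± 1.62 to 4.94 ± 0.256. EIF2AK3 stood at 3.87 ± 0.427 times the level of ERN1 in vehicle, 9.33 ± 1.06 with anticarin-beta, 1.81 ± 0.134 in control siRNA and 2.96 ± 0.193 in CCT4 siRNA libraries. Together the 36 genes took 1.11% ± 0.106 of all counts in vehicle, 1.00% ± 0.0778 in anticarin-beta, 1.13% ± 0.0215 in control siRNA and 1.14% ± 0.0241 in CCT4 siRNA libraries. In bulk RNA a change in the make-up of the cells and a change in RNA per cell cannot be told apart.

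A further 71 genes of the ER folding, degradation, translocation and stress-signalling system, which hold none of the members, were read from the same fit. All were tested. Anticarin-beta libraries had 39 of them higher and 21 lower (median log2 fold change 0.28), that is 54.9% and 29.6% where 34.9% and 38.0% of all genes were. The siRNA comparison had 27 higher and 7 lower (median 0.18), that is 38.0% and 9.86% where 10.7% and 9.04% of all genes were. With library totals 20 were higher and 34 lower with anticarin-beta (median -0.14), and 8 higher and 12 lower in the siRNA comparison. Of all 17717 genes, 4292 were then higher and 8959 lower with anticarin-beta, and 902 and 2800 in the siRNA comparison. PPP1R15A, which directs a phosphatase to undo the translation block set by PERK, was at 59.9, 60.6 and 58.8 CPM in vehicle and 1016, 998 and 991 CPM with anticarin-beta, a 16.8-fold rise (log2 4.07 ± 0.07 SE, adjusted p = 1.2e-12). It also rose 2.97-fold in the CCT4 siRNA libraries, from 167, 162 and 153 to 502, 466 and 462 CPM (log2 1.57 ± 0.06 SE, adjusted p = 1.4e-08), the largest change of the list in both comparisons. ATF4, the factor translated when PERK or related kinases are active, rose with anticarin-beta (log2 1.42 ± 0.05 SE, adjusted p = 1.8e-10) and slightly with CCT4 siRNA (log2 0.21 ± 0.05 SE, adjusted p = 0.015), the latter neither with library totals (log2 0.0841) nor with no low-count filter (log2 0.21). DDIT3, the stress factor CHOP, went from 6.39, 9.47 and 14.8 to 30.4, 27.9 and 32.97 CPM with anticarin-beta (log2 1.58 ± 0.22 SE, adjusted p = 3.2e-05) and did not pass in the siRNA comparison (log2 -0.43 ± 0.21 SE, adjusted p = 0.18), where it was called lower without vehicle replicate 3 (log2 -0.43) and with the siRNA experiment fitted alone (log2 -0.45). DDIT3 shares exons with genes on both strands. PPP1R15A, ATF4 and DDIT3 were listed with TRIB3 as the 4 outputs of the PERK arm, and TRIB3 went the other way. TRIB3 was called lower with anticarin-beta (log2 -0.44) and in the siRNA comparison (log2 -0.47). The other settings were not tried for TRIB3.

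DNAJB9 and DNAJC3, the J-domain co-chaperones known as ERdj4 and P58IPK, rose with anticarin-beta (log2 1.23 ± 0.14 SE, adjusted p = 4.3e-06 and log2 0.87 ± 0.07 SE, adjusted p = 2.1e-07). In the siRNA comparison DNAJC3 rose (log2 0.33 ± 0.07 SE, adjusted p = 0.0089), though not with library totals (log2 0.19), and DNAJB9 did not pass (log2 -0.34 ± 0.14 SE, adjusted p = 0.099) except, as lower, with library totals (log2 -0.47). TMBIM6, an ER membrane calcium channel that guards against cell death, rose in both (log2 1.56 ± 0.06 SE, adjusted p = 1.3e-10 and log2 0.34 ± 0.06 SE, adjusted p = 0.0014). FAF2, which anchors the extraction ATPase at the ER membrane, rose with anticarin-beta (log2 1.66 ± 0.07 SE, adjusted p = 3.2e-10). VCP, that ATPase, fell with it from 367 ± 22.9 to 147 ± 5.63 CPM (log2 -1.32 ± 0.06 SE, adjusted p = 1.4e-09). ERO1A, the oxidase that recharges the disulfide isomerases, fell in both comparisons (log2 -1.50 ± 0.07 SE, adjusted p = 7e-10 and log2 -0.46 ± 0.06 SE, adjusted p = 4.8e-04). No other gene of the list was among the 4 decreases with the smallest p in both. MAN1B1, a mannosidase of glycoprotein quality control, and CREB3, an ER-anchored transcription factor, fell with anticarin-beta (log2 -1.38 ± 0.08 SE, adjusted p = 6.4e-09 and log2 -1.21 ± 0.08 SE, adjusted p = 2e-08).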

How the data were processed

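RNA of 12 MG63 samples in 4 groups of 3 was sequenced from libraries of a stranded TruSeq kit, per the labels' protocols. The authors deposited 1 table of raw counts per gene, not normalized and not pooled. Reads were handled with STAR 2.5.2a, Subread and featureCounts 1.5.0 on hg38, per the submitters' processing notes. Not given in the sources used here are the annotation, the strand setting and the handling of reads with several positions, so genes with overlapping exons are marked. Positions, exon lengths and overlaps came from GENCODE release 29 on GRCh38, where 98.5% of the gene identifiers were found.

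The test was the two-sided quasi-likelihood test of edgeR 4.0.16 in R 4.3.3, on counts, with TMM, filterByExpr, 1 mean per group over all 12 libraries (8 residual degrees of freedom) and Benjamini-Hochberg adjustment over 17717 genes. Genes under 0.05 were called. Standard errors derive from the F statistic, and fold changes carry a prior count of 0.125. Replicates of a group differed beyond sampling noise (chi-square per degree of freedom 8.48 to 26.5), and each counted as 1 sample. The vehicle pairs differed most, at 24.8, 26.5 and 13.5, and no pair of another group was above 10.9. The fit shared the spread over all 4 groups. The settings varied were the scaling (RLE, upper quartile, library totals), the tool (limma-voom of limma 3.58.1, or DESeq2 1.42.0), no filter or 5 CPM in 3 libraries, a replicate block, each experiment alone, and each library left out.

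Members, wider list and naming rule were chosen with earlier results of these data known. Values in every library are given for HSPA5, ERN1, EIF2AK3, ATF6 and XBP1, for up to 4 members of each role with the smallest p for anticarin-beta and for the 6 smallest p of siRNA and of the difference; from the wider list, the 4 smallest p in each direction of each comparison and DNAJB9, DNAJC3, ATF4 and DDIT3 are named. Other members with values by library, the ratios between members, and TRIB3 of the wider list were picked after their values were seen.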

Additional observations from a re-analysis of the deposited data

How the results depend on the processing

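With library totals alone the median over all genes went to -0.48 for anticarin-beta, -0.12 for siRNA and -0.38 for the difference. Of the 17717 genes, 4292 were higher and 8959 lower for anticarin-beta, 902 and 2800 for siRNA, and 3724 and 7283 for the difference. The members then numbered 7 higher and 19 lower with anticarin-beta (median -0.25), 2 higher with siRNA (median -0.0664) and 13 lower in the difference (median -0.28); the wider list numbered 20 and 34 (median -0.14), 8 and 12 (median 0.0505), with a median of -0.21 in the difference. Among members and named genes of the wider list, a turn of direction was counted only where the TMM or the library-totals fit called the gene. The genes so counted for anticarin-beta were HSP90B1 (log2 -0.13), HYOU1 (-0.28), CALR (-0.35), PDIA3 (-0.0584), PDIA6 (-0.22), ERN1 (-0.0230), ATF6B (-0.22), CREB3L2 (-0.35), MBTPS2 (-0.40), DERL2 (-0.37), UBXN4 (-0.22) and NGLY1 (-0.33), and DERL1 (-0.0118) for the difference. CANX (-0.14), EDEM3 (-0.13) and XBP1 (-0.35) also changed sign for anticarin-beta, called in neither fit. Further genes called in neither fit did so for the difference. Upper-quartile scaling gave anticarin-beta medians of 0.0498 for members and 0.16 for the wider list. At an adjusted p under 0.01 the siRNA comparison held 4 members higher and 0 lower (edgeR; 15 members had an unadjusted p under 0.05) and 11 and 4 of the wider list; with no low-count filter it held 17 of the wider list higher, as more genes were tested. Leaving out 1 library at a time gave 4 to 9 members higher and 0 to 3 lower for siRNA, and 16 to 28 and 4 to 7 of the wider list.

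Same-numbered libraries did not deviate together (correlations from -0.031 to 0.026), so the numbers were not read as pairs. With a replicate block 15 members were higher and 8 lower for anticarin-beta, 8 and 2 for siRNA, and 9 and 6 for the difference. The alternatives for single genes of the wider list and for CCT4 were chosen after seeing the data. At these depths, DERL3 was the member whose depth limits what can be read.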

Other observations

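Of the wider list, the genes with the smallest p in the siRNA comparison included 5 not described above. UFD1, the cofactor that brings ubiquitinated proteins to VCP, rose from 57.2, 61.6 and 59.2 CPM in control siRNA to 94.2, 92.5 and 85.1 CPM in CCT4 siRNA libraries (log2 0.61 ± 0.08 SE, adjusted p = 3.0e-04), whereas with anticarin-beta it was at 64.1 ± 5.55 and 60.5 ± 2.90 CPM and did not pass (log2 -0.08 ± 0.08 SE, adjusted p = 0.35); it was called lower there with upper-quartile scaling (log2 -0.20, adjusted p = 0.0407) and library totals (log2 -0.50, adjusted p = 7.84e-05). SEC11A, the catalytic subunit of signal peptidase, rose (log2 0.49 ± 0.08 SE, adjusted p = 0.0011). TXNDC11, UBXN4 and NGLY1 fell (log2 -0.45 ± 0.08 SE, adjusted p = 0.0022; log2 -0.33 ± 0.06 SE, adjusted p = 0.0026; log2 -0.58 ± 0.11 SE, adjusted p = 0.0035). SEC11A and TXNDC11 changed in the same direction with anticarin-beta (log2 0.55 and -0.38), SEC11A not with library totals, and their differences did not pass (log2 0.06 and 0.07). NGLY1 strips glycans from extracted proteins and UBXN4 tethers VCP to the ER membrane. The test of the difference passed for UFD1 (log2 -0.70), UBXN4 (log2 0.53) and NGLY1 (log2 0.67). VCP was called higher in the CCT4 siRNA libraries (log2 0.21 ± 0.06 SE, adjusted p = 0.032), but not after leaving out control replicate 1, control replicate 2 or any 1 of the CCT4 siRNA libraries (log2 between 0.19 and 0.22), nor with the replicate block (log2 0.21, adjusted p = 0.0559), library totals (log2 0.0813) or no low-count filter (log2 0.20). TMX4, a membrane-bound disulfide isomerase, fell with anticarin-beta and rose in the CCT4 siRNA libraries (log2 -0.68 ± 0.06 SE, adjusted p = 5.1e-07; log2 0.29 ± 0.06 SE, adjusted p = 0.0059), the latter not with library totals (log2 0.16), and the difference passed (log2 -0.98 ± 0.09 SE, adjusted p = 8.7e-07).

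By role, the glycoprotein folding cycle, with the glucosidases and UGGT1, had 2 of 8 genes higher and 4 lower with anticarin-beta and a median log2 fold change of -0.54, where 34.9% of all genes tested were higher and 38.0% lower. The group of degradation genes that recognise, ubiquitinate and extract substrates had 10 of 16 higher and 4 lower, with a median of 0.43. Targeting, translocation and signal peptide cleavage had 8 of 14 higher and 3 lower with anticarin-beta (median 0.47), and 7 higher and none lower in the siRNA comparison (median 0.25), where 10.7% and 9.04% of all genes were. In the remaining groups, the genes higher and lower with anticarin-beta were 5 and 3 of 8 J-domain co-chaperones with nucleotide exchange factors and 6 and 3 of 12 in oxidative folding. They were 4 and 1 of 6 prolyl isomerases, 1 and 2 of 3 other membrane-bound stress factors, and 3 and 1 of 4 PERK arm outputs. With siRNA these groups had, in the same order, 2 and 0, 6 and 2, 1 and 0, 1 and 1, and 2 and 1. These counts are descriptions.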
